A study of Mus musculus with 9 samples.

Results

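Imprinted genes outside the Dlk1-Dio3 locus were examined in mouse embryonic stem (ES) cells that lack 1 of 2 proteins of miRNA maturation. The members are 42 known mouse imprinted genes and close neighbours in their domains, chosen by gene symbol. Of these, 36 have a transcript cluster (the unit of the array, the probes of 1 transcribed locus) annotated with their symbol alone, with 1 cluster each. Snrpn, Ube3a and Gnas (3 members) share their clusters with other symbols and are not described, and H19, Kcnq1ot1 and Slc22a3 (3 members) were not matched to a cluster by symbol and are not analysed here. RNA was measured on 9 Affymetrix mouse gene arrays, 3 each for Dgcr8 KO, Dicer KO and wild-type (WT) ES cells. Dgcr8 KO cells lack the protein that holds the RNA for Drosha, the cutting enzyme of the Microprocessor, through a deletion of exon 3, Dicer KO cells lack the enzyme that cuts the hairpins the Microprocessor releases, and WT is the v6.5 line. Both mutants are lines derived in earlier work, and the number of clones behind each is not given in the sources used here, so that a property of the line and an effect of the deleted gene cannot be told apart. The methods name 3 biological replicates per genotype, while the sample labels speak of plating in triplicate, and p-values then reflect only the spread between these cultures, which may be technical.

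An imprinted gene is transcribed mainly from the copy inherited from 1 parent. The choice is written as DNA methylation at imprinting control regions in the germ line, is kept through the demethylation of the early embryo by zinc finger proteins such as ZFP57 with TRIM28, and is read through insulators and long non-coding RNAs that act over a whole domain. Many of these genes act on growth of the fetus and placenta, and imprints are known to be unstable in cultured ES cells. The arrays measured the sum over both alleles, so no allele was assigned from these data, and the expressed allele named for each gene is background knowledge from mouse tissues.

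The targeted genes were lowest in the cells labelled for them. Dgcr8 was at log2 levels of 8.74, 8.96 and 8.86 in Dgcr8 KO, 9.98, 9.99 and 9.99 in Dicer KO, against 9.76, 9.81 and 9.82 in WT. Dicer1 was at 10.40, 10.47 and 10.39 in Dgcr8 KO, 8.33, 8.43 and 8.32 in Dicer KO, against 10.18, 10.18 and 10.23 in WT. Dgcr8 KO replicate 2 (score -0.444) and WT replicate 1 (score 0.666) stood farthest apart on the first principal component of the deviations from the genotype means, which took up 40.8% of their variance. The mean log2 level of 12 ES cell markers lay between 11.33 and 11.37 on the Dgcr8 KO arrays, 11.44 and 11.46 on the Dicer KO arrays, and 11.03 and 11.11 on the WT arrays, so all 3 genotypes carried the markers of the labelled cell type.

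Members were called when the adjusted p of limma, by Benjamini-Hochberg over all 23002 transcripts counted, was under 0.05. In Dgcr8 KO relative to WT, 5 of the 36 members were called higher (13.9%) and 17 lower (47.2%), where 15.7% of all transcripts were called higher and 17.3% lower. In Dicer KO relative to WT, 8 members were called higher (22.2%) and 18 lower (50%), where 17.8% of all transcripts were called higher and 19.1% lower. The share of members called lower was thus above the background in both mutants, and the share called higher was near it, as a description with no test. The members were chosen with earlier results of these data known. Without the dimmest 25% of transcripts, 17 members were called lower in each mutant, beside 24.1% of all transcripts for Dgcr8 KO and 25.8% for Dicer KO. Of 28 further imprinted genes and neighbours, 17.9% were called lower in each mutant. The members had a median log2 ratio of -0.11 in Dgcr8 KO, where all transcripts had -0.01, and of -0.18 in Dicer KO, where all transcripts had -0.06. Both comparisons use the same WT arrays. With Dgcr8 KO replicate 2 and WT replicate 1 both removed, a choice made after the data were seen, 5 members were called higher and 15 lower for Dgcr8 KO, beside 17.2% and 19.1% of all transcripts, and 7 higher and 16 lower for Dicer KO, beside 17.5% and 19.6%.

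Plagl1, Cd81, Copg2 and Ndn (4 members) were called higher against the shared WT arrays in each mutant, and 15 members were called lower in each. Peg3 was called higher in Dgcr8 KO and lower in Dicer KO, and Inpp5f lower in Dgcr8 KO and higher in Dicer KO. Tssc4, Mkrn3 and Impact (3 members) were called higher in Dicer KO alone, Blcap and Dcn (2 members) lower in Dicer KO alone, and H13 lower in Dgcr8 KO alone. A call in 1 mutant alone does not show a difference between the mutants, which was tested directly and is given for each gene. Another 9 members were called in neither mutant. The shares of all transcripts with these joint patterns are not given here, so these counts stand without a background. In samples of whole cultures, fewer cells that express a gene and less RNA per cell cannot be told apart.

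**Figure D1:**
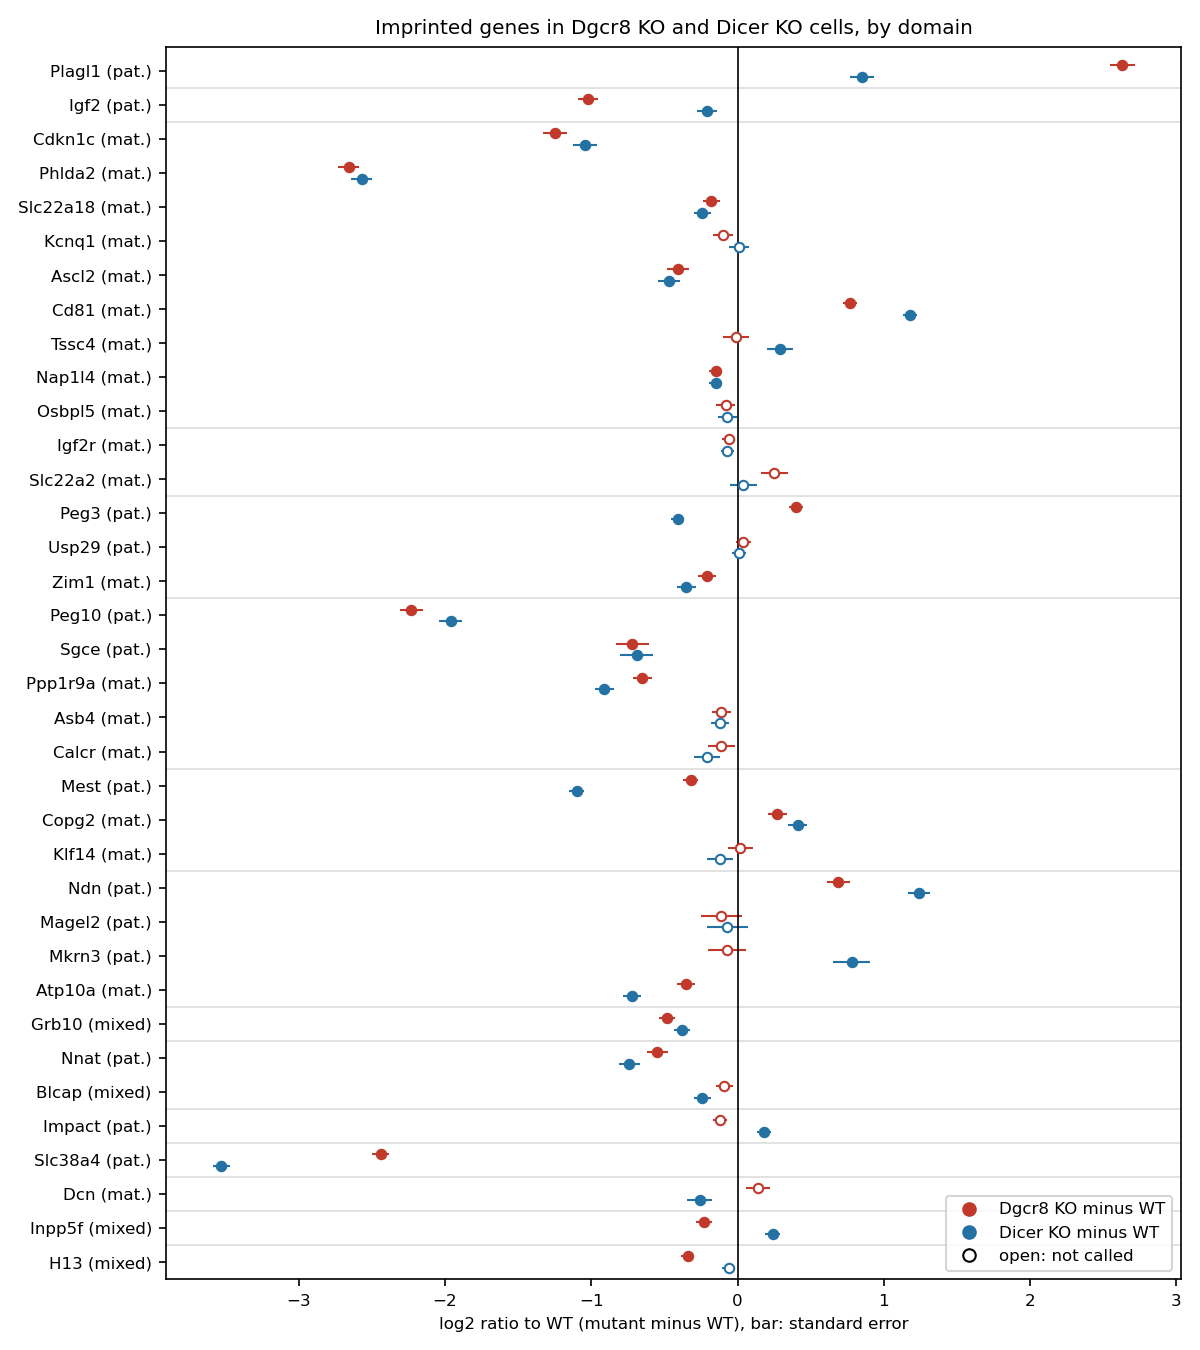
Log2 ratio to WT of the 36 imprinted genes (x axis, 0 marks equality), grouped by imprinted domain with grey lines between domains, for Dgcr8 KO (red) and Dicer KO (blue) cells, 3 arrays per genotype. Bars are standard errors of the fit, filled points were called by limma at an adjusted p under 0.05, and pat., mat. and mixed give the allele known to be expressed; Slc38a4, Phlda2 and Peg10 lie farthest to the left in both mutants, and Plagl1 lies farthest to the right in Dgcr8 KO at 2.63.

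Plagl1 had the largest increase of any member in Dgcr8 KO, while in Dicer KO it rose less than Ndn and Cd81. It encodes a zinc finger transcription factor that restrains cell growth, is expressed from the paternal allele, and lies on the forward strand at chr10:13090832-13131694 (GRCm38.p6). It was measured at log2 levels of 8.87, 8.76 and 8.66 in Dgcr8 KO, 6.99 on each of the 3 Dicer KO arrays, and 6.08, 6.0 and 6.32 in WT. Every Dgcr8 KO array was above every Dicer KO array, and these in turn were above every WT array. The log2 ratio to WT was 2.63 in Dgcr8 KO (standard error 0.0844, adjusted p = 5.37e-08), a 6.19-fold difference, and 0.85 in Dicer KO (adjusted p = 3.66e-05), a 1.81-fold difference. Dgcr8 KO exceeded Dicer KO by 1.78 (adjusted p = 1.11e-06, limma), or 3.43-fold. The 3 Dicer KO values of Plagl1 are identical in every deposited digit, so their SD is 0. The fit pooled the spread over all 9 arrays with this SD among them, so the standard error and p-values of this gene may be too small.

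The sequence around the start of Plagl1 is shown because this gene moved most between the mutants, with CpG dinucleotides, the sites of the methylation that carries imprints, in capitals. It is the RefSeq window of GRCm38.p6 on the forward strand, chr10:13090582-13090881, 250 bases before and 50 after the start, 5′ to 3′.
Plagl1: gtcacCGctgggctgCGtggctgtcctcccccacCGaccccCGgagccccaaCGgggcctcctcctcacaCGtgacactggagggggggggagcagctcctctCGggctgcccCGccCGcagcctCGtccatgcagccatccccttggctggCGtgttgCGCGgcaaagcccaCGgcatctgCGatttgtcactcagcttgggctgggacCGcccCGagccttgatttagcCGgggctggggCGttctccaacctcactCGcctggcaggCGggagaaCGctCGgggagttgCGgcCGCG
The window holds 26 CpG, where the median over 32851 such windows of 27025 genes is 7. It holds 1 match to TGCCGC, the core hexamer known to be bound by ZFP57 when methylated, read on the opposite strand as GCGGCA at bases 161 to 166 of the window. Searched on both strands, the hexamer occurs in 11.6% of all windows, and in 12 of the 52 windows (23.1%) found for 33 of the 42 listed members, whose median CpG count is 15.5. The windows of all genes include non-coding genes, and a match is a description of the letters and not a measured site.

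Slc38a4 had the largest decrease of any member in Dicer KO and the next largest, after Phlda2, in Dgcr8 KO. It encodes a transporter of neutral and cationic amino acids, is expressed from the paternal allele in placenta and fetal tissues, and lies on the reverse strand at chr15:96994816-97055956. The 9 arrays gave log2 levels of 8.61, 8.68 and 8.68 in Dgcr8 KO, 7.55, 7.52 and 7.64 in Dicer KO, against 10.99, 11.14 and 11.15 in WT. The 3 genotypes did not overlap, with Dicer KO lowest and WT highest. The log2 ratio to WT was -2.44 for Dgcr8 KO (standard error 0.0597, adjusted p = 1.21e-08) and -3.53 for Dicer KO (adjusted p = 1.86e-09), which is 5.42-fold lower in the first mutant and 11.5-fold lower in the second. The level in Dgcr8 KO was above that in Dicer KO by 1.09 (adjusted p = 2.94e-06, limma). RefSeq gives this gene 3 start windows, each with 5 CpG and none with the ZFP57 hexamer, and the outermost, chr15:97055907-97056206 on the reverse strand, is shown to set beside that of Plagl1.
Slc38a4: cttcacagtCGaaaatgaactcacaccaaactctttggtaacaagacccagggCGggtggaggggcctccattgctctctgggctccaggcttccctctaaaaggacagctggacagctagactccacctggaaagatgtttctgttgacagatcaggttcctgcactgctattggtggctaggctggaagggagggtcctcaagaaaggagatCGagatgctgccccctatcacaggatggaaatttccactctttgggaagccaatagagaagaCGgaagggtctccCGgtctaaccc
Few capitals stand in this window beside the 26 CpG at the start of Plagl1.

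In the Kcnq1 domain of distal chromosome 7, whose maternally expressed genes are silenced on the paternal copy through the non-coding RNA Kcnq1ot1, 9 members were measured. Both growth-restraining genes of the domain were lower in the mutants. Phlda2, a small pleckstrin homology protein that restrains the growth of the placenta, was at log2 levels of 7.57, 7.72 and 7.50 in Dgcr8 KO, 7.78, 7.70 and 7.60 in Dicer KO, against 10.20, 10.24 and 10.33 in WT. Each mutant array lay below every WT array, and the mutants overlapped each other. Against WT the log2 ratio was -2.66 for Dgcr8 KO (standard error 0.0703, adjusted p = 1.59e-08, 6.33-fold lower) and -2.57 for Dicer KO (adjusted p = 1.68e-08, 5.92-fold lower), and the difference between the mutants, -0.10 with a standard error of 0.0703, was not called (adjusted p = 0.357, limma). The start window of Phlda2 on the reverse strand, chr7:143502475-143502774, is shown because the gene fell in both mutants, again with CpG in capitals.
Phlda2: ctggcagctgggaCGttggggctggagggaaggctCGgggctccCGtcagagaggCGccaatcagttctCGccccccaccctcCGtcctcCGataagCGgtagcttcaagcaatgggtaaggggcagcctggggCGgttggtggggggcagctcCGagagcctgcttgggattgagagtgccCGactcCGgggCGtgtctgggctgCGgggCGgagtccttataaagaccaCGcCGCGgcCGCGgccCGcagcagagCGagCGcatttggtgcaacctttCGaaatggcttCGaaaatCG
This window also holds 26 CpG, as that of Plagl1 does, and no match to the ZFP57 hexamer.

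Cdkn1c, an inhibitor of cyclin-dependent kinases that restrains growth of the embryo, was lower in both mutants as well. Its log2 levels were 7.78, 7.59 and 7.47 in Dgcr8 KO, 7.74, 7.85 and 7.89 in Dicer KO, against 8.93, 8.80 and 8.85 in WT. The mutants overlapped each other and stayed below WT on all arrays. Relative to WT its log2 ratio was -1.25 for Dgcr8 KO (standard error 0.0818, adjusted p = 3.21e-06) and -1.04 for Dicer KO (adjusted p = 8.1e-06), or 2.38-fold and 2.05-fold lower. The difference between the mutants was -0.21 (adjusted p = 0.0958, limma), and it was called by SAM, the test of the original methods, with each array centred on its median (-0.26, adjusted p = 0.038), and without Dgcr8 KO replicate 1 (-0.29, adjusted p = 0.0232). Ascl2, a transcription factor of the placenta, was lower by a smaller amount, with log2 ratios of -0.41 for Dgcr8 KO and -0.47 for Dicer KO (standard error 0.0751).

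Cd81, a tetraspanin of the cell surface, went the other way within the same domain. It was measured at log2 levels of 11.98, 11.96 and 11.97 in Dgcr8 KO, 12.43, 12.35 and 12.38 in Dicer KO, against 11.15, 11.24 and 11.22 in WT. The genotypes were separated on every array, with Dicer KO highest. The log2 ratio was 0.77 for Dgcr8 KO (standard error 0.0456, adjusted p = 1.78e-06) and 1.18 for Dicer KO (adjusted p = 8.9e-08), and the mutants differed by -0.41 (adjusted p = 0.000186, limma). Tssc4, which neighbours Cd81, had log2 ratios of -0.01 for Dgcr8 KO (adjusted p = 0.95) and 0.29 for Dicer KO (adjusted p = 0.0245) and differed between the mutants by -0.30 (adjusted p = 0.0306). Its call against WT was lost without WT replicate 1 or 2 or Dicer KO replicate 1 or 3, and its call between the mutants without any 1 of the Dgcr8 KO arrays or Dicer KO replicate 1 or 3.

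The other members of the domain were close to WT. Slc22a18, a membrane transporter of the organic cation family, had log2 ratios of -0.18 for Dgcr8 KO and -0.24 for Dicer KO, and the first of these calls was lost without WT replicate 1 or 3, without any 1 of the Dgcr8 KO arrays, or without Dicer KO replicate 3. The histone chaperone gene Nap1l4 had -0.15 in both mutants, with the call lost in Dgcr8 KO without WT replicate 2 or 3 or Dgcr8 KO replicate 1 or 2, and in Dicer KO without WT replicate 2 or 3 or Dicer KO replicate 1 or 3. Kcnq1, a potassium channel subunit (log2 levels of 6.28 to 6.58), and Osbpl5, an oxysterol-binding protein homologue (6.21 to 6.48), were not called in any contrast. Of the 9 members measured in the domain, 1 was higher (11.1%) and 5 lower (55.6%) for Dgcr8 KO. For Dicer KO 2 were higher (22.2%) and 5 lower (55.6%). Genes of the domain that are not members, such as Tspan32, are not in these counts. The shares higher were near those of all transcripts, 15.7% for Dgcr8 KO and 17.8% for Dicer KO, and the shares lower were above the 17.3% and 19.1% of all transcripts.

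In the neighbouring H19-Igf2 domain, Igf2, the paternally expressed fetal growth factor, was lower in Dgcr8 KO. The 9 arrays gave log2 levels of 6.95, 6.76 and 6.68 in Dgcr8 KO, 7.64, 7.61 and 7.58 in Dicer KO, against 7.86, 7.78 and 7.82 in WT. The Dgcr8 KO arrays stood well below both other genotypes, and the Dicer KO arrays just below WT with no overlap. Against WT the log2 ratio was -1.02 for Dgcr8 KO (standard error 0.0681, adjusted p = 3.57e-06, 2.03-fold lower) and -0.21 for Dicer KO (adjusted p = 0.0378). The Dicer KO call was lost when any 1 of the WT or Dicer KO arrays was left out, while the ratio stayed between -0.23 and -0.19. Dgcr8 KO minus Dicer KO was -0.81 on the log2 scale (adjusted p = 3.49e-05, limma). Igf2r, the maternally expressed receptor that clears this factor, was at 8.77 to 8.89 on all 9 arrays and was called in no contrast, and Slc22a2, an organic cation transporter of the same domain, was at 5.48 to 6.01 with ratios of 0.25 for Dgcr8 KO (adjusted p = 0.0689) and 0.04 for Dicer KO. The ratio of Slc22a2 in Dgcr8 KO was called under 5 alternatives, among them without WT replicate 1, without the dimmest 25% of transcripts and with array weights.

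The paternally expressed retrotransposon-derived gene Peg10, required for the placenta, was strongly reduced in both mutants. Its log2 levels were 9.29, 9.26 and 8.97 in Dgcr8 KO, 9.46, 9.46 and 9.41 in Dicer KO, against 11.40, 11.37 and 11.43 in WT. All mutant arrays lay below WT, with Dgcr8 KO replicate 3 lowest. Relative to WT its log2 ratio was -2.23 for Dgcr8 KO (standard error 0.0789, adjusted p = 9.62e-08, 4.68-fold lower) and -1.96 for Dicer KO (adjusted p = 1.14e-07, 3.88-fold lower). The mutants differed by -0.27 (adjusted p = 0.034, limma), which was lost without any 1 of the Dicer KO arrays and became -0.17 without Dgcr8 KO replicate 3.

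Sgce, which encodes epsilon-sarcoglycan, is the paternally expressed neighbour of Peg10, and the 2 gene models on chromosome 6 lie 101 bases apart in opposite directions. It was lower in both mutants as Peg10 was, by a smaller amount, with log2 ratios of -0.72 for Dgcr8 KO and -0.69 for Dicer KO (standard error 0.113, adjusted p = 0.000829 and 0.000995). Ppp1r9a, which encodes the actin-binding protein neurabin and is expressed from the maternal allele, was lower as well, with -0.65 for Dgcr8 KO and -0.91 for Dicer KO (standard error 0.0678). Its difference of 0.26 between the mutants (adjusted p = 0.0196) was lost without Dgcr8 KO replicate 2 or Dicer KO replicate 1 or 3. Asb4, a subunit of ubiquitin ligases (4.38 to 4.71), and Calcr, the calcitonin receptor (4.96 to 5.48), were not called in any contrast, and both belong to the dimmest 25% of transcripts, where the mean log2 level is under 5.49.

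**Figure D2:**
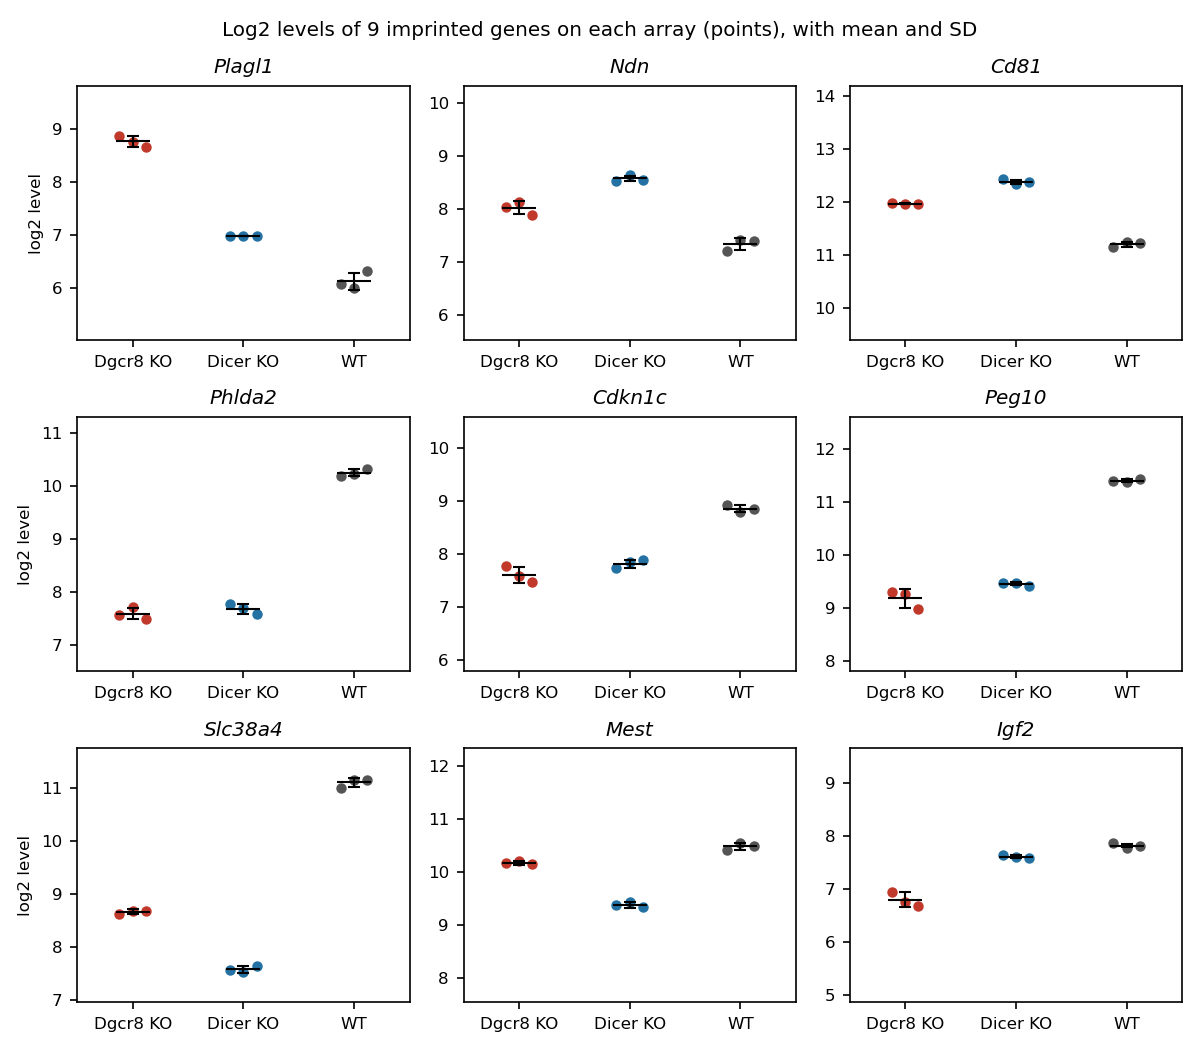
Log2 level (y axis, the same span of log2 units in every panel) of the 9 imprinted genes called with a log2 ratio of at least 1 in size in any contrast, on the Dgcr8 KO, Dicer KO and WT arrays from left to right. Points are arrays, and the black line and bar are the mean and SD of 3 arrays; Plagl1, Ndn and Cd81 are higher in both mutants than in WT, and the other 6 genes are lower.

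In the Mest domain, also on chromosome 6, Mest and its antisense neighbour moved in opposite directions. Mest, a paternally expressed enzyme of the alpha/beta hydrolase fold, was at log2 levels of 10.16, 10.20 and 10.14 in Dgcr8 KO, 9.37, 9.44 and 9.34 in Dicer KO, against 10.41, 10.55 and 10.49 in WT. The 3 genotypes did not overlap, and Dicer KO was lowest. The log2 ratio was -0.32 for Dgcr8 KO (standard error 0.053, adjusted p = 0.00124) and -1.10 for Dicer KO (adjusted p = 3.32e-07, 2.14-fold lower), and Dgcr8 KO was above Dicer KO by 0.78 (adjusted p = 1.02e-05, limma). SAM did not call Mest in Dgcr8 KO. Copg2, a coatomer subunit of vesicle transport, was higher, with 0.27 for Dgcr8 KO (adjusted p = 0.0104) and 0.41 for Dicer KO (adjusted p = 0.000783), and the first of these was not called by SAM. The gene models of Mest and Copg2 overlap by 913 bases, and the positions of the probes were not used here. Klf14, a zinc finger gene of the domain, was at 7.65 to 8.01 and was called in no contrast.

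In the Snrpn domain on chromosome 7, the homologue of the human Prader-Willi and Angelman region, 4 members were measured, and they did not move together. Ndn, which encodes the growth suppressor necdin, was at log2 levels of 8.04, 8.13 and 7.89 in Dgcr8 KO, 8.53, 8.63 and 8.54 in Dicer KO, against 7.20, 7.41 and 7.39 in WT. It was highest in Dicer KO and lowest in WT with no overlap. Against WT the log2 ratio was 0.69 for Dgcr8 KO (standard error 0.0769, adjusted p = 9.37e-05) and 1.24 for Dicer KO (adjusted p = 1.66e-06, 2.36-fold higher), and the mutants differed by -0.55 (adjusted p = 0.000786, limma).

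Mkrn3, a paternally expressed ubiquitin ligase of the same domain, was higher in Dicer KO alone. It was measured at log2 levels of 5.89, 6.17 and 5.80 in Dgcr8 KO, 6.66, 6.93 and 6.82 in Dicer KO, against 5.77, 6.19 and 6.10 in WT. The Dgcr8 KO and WT arrays overlapped, and all Dicer KO arrays lay above both. The ratio to WT was -0.07 for Dgcr8 KO (adjusted p = 0.763) and 0.78 for Dicer KO (standard error 0.129, adjusted p = 0.00104), and the direct difference was -0.85 (adjusted p = 0.00128, limma). Magel2, a paternally expressed relative of Ndn, was at 5.91 to 6.40 and was called in no contrast. Atp10a, a phospholipid flippase expressed from the maternal allele in some tissues, was lower, with -0.35 for Dgcr8 KO and -0.72 for Dicer KO, and it differed between the mutants by 0.37 (standard error 0.0618, adjusted p = 0.00212).

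Peg3 was called in opposite directions in the mutants. It encodes a large zinc finger protein expressed from the paternal allele, and it lies on the reverse strand at chr7:6703892-6730462. The 9 arrays gave log2 levels of 9.12, 9.24 and 9.16 in Dgcr8 KO, 8.35, 8.35 and 8.37 in Dicer KO, against 8.74, 8.79 and 8.77 in WT. All Dgcr8 KO arrays lay above WT and all Dicer KO arrays below it. Relative to WT its log2 ratio was 0.40 for Dgcr8 KO (standard error 0.0462, adjusted p = 0.000109) and -0.41 for Dicer KO (adjusted p = 8.62e-05), and Dgcr8 KO was above Dicer KO by 0.81 (adjusted p = 3.46e-06, limma), or 1.76-fold. Usp29, a ubiquitin peptidase gene, is likewise paternally expressed, and the 2 gene models lie 96 bases apart on opposite strands. It was at 4.79 to 4.92 on all arrays, among the dimmest 25% of transcripts, and was called in no contrast. The start windows of the 2 genes share 263 bases, and that of Peg3, chr7:6730370-6730669 on the reverse strand, is shown because 1 stretch of DNA holds both starts.
Peg3: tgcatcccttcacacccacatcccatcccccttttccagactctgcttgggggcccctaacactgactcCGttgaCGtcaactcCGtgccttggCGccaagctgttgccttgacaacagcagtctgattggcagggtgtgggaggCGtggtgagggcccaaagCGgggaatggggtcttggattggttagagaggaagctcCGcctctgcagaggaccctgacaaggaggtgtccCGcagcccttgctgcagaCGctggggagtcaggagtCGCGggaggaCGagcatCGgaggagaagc
The window holds 13 CpG (capitals) and no match to the ZFP57 hexamer. Zim1, a maternally expressed zinc finger gene of the domain, was lower with -0.21 for Dgcr8 KO and -0.35 for Dicer KO (standard error 0.063), and the first call was lost without WT replicate 2 or 3 or without any 1 of the Dgcr8 KO arrays.

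Inpp5f, a phosphoinositide phosphatase gene with an imprinted isoform in the brain, was also called in opposite directions, the other way round from Peg3. Its log2 levels were 6.94, 7.0 and 6.87 in Dgcr8 KO, 7.48, 7.42 and 7.35 in Dicer KO, against 7.17, 7.17 and 7.18 in WT. The 3 genotypes did not overlap, with WT in between. The log2 ratio was -0.23 for Dgcr8 KO (standard error 0.0525, adjusted p = 0.0068) and 0.24 for Dicer KO (adjusted p = 0.00554), and the mutants differed by -0.47 (adjusted p = 0.000187, limma). SAM called the difference between the mutants and neither ratio to WT.

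The members of the remaining domains had log2 ratios under 1 in size. Grb10, an adaptor that restrains signalling from the insulin and insulin-like growth factor receptors, was lower in both mutants, with -0.48 for Dgcr8 KO and -0.38 for Dicer KO (standard error 0.0552). Nnat, which encodes the small membrane protein neuronatin, was lower with -0.55 for Dgcr8 KO and -0.74 for Dicer KO (standard error 0.0716). Its gene lies within Blcap, with 2448 bases shared, and Blcap had -0.09 for Dgcr8 KO (adjusted p = 0.296) and -0.24 for Dicer KO (adjusted p = 0.00825), with no call between the mutants, where 5 alternatives, SAM among them, called Blcap.

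H13, the gene of signal peptide peptidase, was lower in Dgcr8 KO (-0.34, adjusted p = 0.000235) and not called in Dicer KO (-0.06, adjusted p = 0.351), and the mutants differed by -0.28 (adjusted p = 0.00134). Impact, a regulator of translation under amino acid shortage, had -0.12 for Dgcr8 KO (adjusted p = 0.0848) and 0.18 for Dicer KO (adjusted p = 0.0117), and differed by -0.30 (adjusted p = 0.00134). The matrix proteoglycan gene Dcn was dim at 4.90 to 5.51, with 0.14 in Dgcr8 KO (adjusted p = 0.26), -0.26 in Dicer KO (adjusted p = 0.0376) and 0.40 between the mutants (adjusted p = 0.00741). Its call in Dicer KO was lost without WT replicate 1 or 2, Dgcr8 KO replicate 3, or Dicer KO replicate 1 or 3. All these values come from limma.

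Between the mutants, Dgcr8 KO had 7 members called higher (19.4%) and 9 called lower (25%) relative to Dicer KO, where 11.2% of all transcripts were called higher and 13.4% lower. With each array centred on its median, 6 members were called higher and 10 lower, and the background was 7.77% higher and 16.4% lower. The median log2 difference of the members was 0.01, against 0.03 over all transcripts. The members higher in Dgcr8 KO were Plagl1, Slc38a4, Peg3, Mest, Dcn, Atp10a and Ppp1r9a. For Slc38a4, Mest, Atp10a and Ppp1r9a the reduction against WT was the smaller one in Dgcr8 KO. The members lower in Dgcr8 KO were Mkrn3, Igf2, Ndn, Inpp5f, Cd81, Impact, Tssc4, H13 and Peg10. For Ndn and Cd81 the increase against WT was the smaller one in Dgcr8 KO, and for Igf2 and Peg10 the reduction was larger.

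Grouped by the allele known to be expressed, 13 paternally expressed members had 3 called higher (23.1%) and 6 lower (46.2%) for Dgcr8 KO, with a median log2 ratio of -0.12, and 4 higher (30.8%) and 7 lower (53.8%) for Dicer KO, with a median of -0.21. Among 19 maternally expressed members, 2 were higher (10.5%) and 8 lower (42.1%) for Dgcr8 KO (median -0.11) and 3 higher (15.8%) and 9 lower (47.4%) for Dicer KO (median -0.15). Over all transcripts 15.7% were higher and 17.3% lower for Dgcr8 KO and 17.8% and 19.1% for Dicer KO, so the share lower was above the background in both classes, and the share higher was somewhat below it in the maternal class and somewhat above it in the paternal class. Neither allele class moved one way. The paternally expressed members ranged from -2.44 (Slc38a4) to 2.63 (Plagl1) in Dgcr8 KO and from -3.53 (Slc38a4) to 1.24 (Ndn) in Dicer KO, and the maternally expressed ones from -2.66 (Phlda2) to 0.77 (Cd81) in Dgcr8 KO and from -2.57 (Phlda2) to 1.18 (Cd81) in Dicer KO. In the direct contrast 9 of the 13 paternally expressed members were called, 4 higher and 5 lower in Dgcr8 KO, against 5 of the 19 maternally expressed ones, 3 higher and 2 lower. The maternal shares of 15.8% higher and 10.5% lower were near those of all transcripts in this contrast, 11.2% and 13.4%, and the paternal shares of 30.8% and 38.5% were above them. The other 4 members (Grb10, Blcap, Inpp5f and H13), whose expressed allele depends on tissue or isoform, had 0 higher and 3 lower for Dgcr8 KO and 1 higher and 2 lower for Dicer KO. The split is not a clean one, since the maternal class also holds genes expressed from the maternal allele only in some tissues, Atp10a among them. The classes follow background knowledge, and the expressed allele was not measured in these ES cells. These counts describe the classes, and the difference between the classes was not tested.

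**Figure D3:**
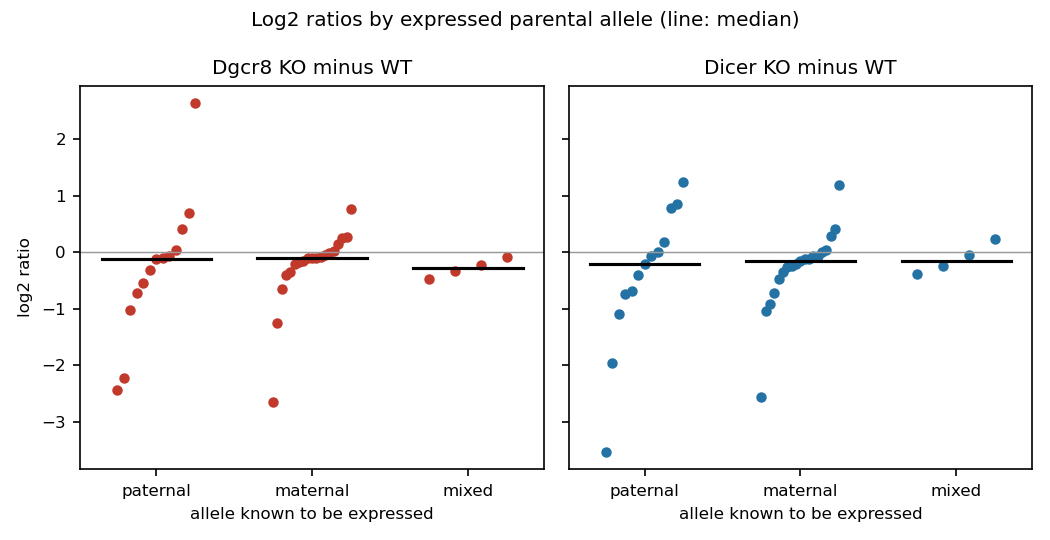
Log2 ratio to WT (y axis) of each imprinted gene in Dgcr8 KO (left, red) and Dicer KO (right, blue), split by the allele known to be expressed (13 paternal, 19 maternal, 4 mixed), sorted within each class. Black lines are medians, all between -0.29 and -0.11, and both the paternal and the maternal class hold members far above and far below 0.

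The 9 members called in neither mutant were Kcnq1, Osbpl5, Igf2r, Slc22a2, Usp29, Asb4, Calcr, Klf14 and Magel2. Their log2 ratios lay between -0.11 and 0.25 in Dgcr8 KO and between -0.21 and 0.04 in Dicer KO. Of the 4 members in the dimmest 25% of transcripts (Usp29, Asb4, Calcr and Dcn), 1 was called against WT (Dcn).

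Clusters that hold only miRNA genes were left out of the test, and their levels are given for the miRNA genes in or beside the members. Mir296 and Mir298 lie 17194 and 16734 bases before the start of Gnas on the opposite strand, in an imprinted domain of chromosome 2 whose antisense transcript is known to give rise to them. Their mature products, from RefSeq of GRCm38.p6, are printed with the seed (bases 2 to 8) in capitals, because these 2 clusters stood apart in Dgcr8 KO.
mmu-miR-296-5p: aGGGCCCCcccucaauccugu
mmu-miR-296-3p: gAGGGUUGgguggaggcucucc
mmu-miR-298-5p: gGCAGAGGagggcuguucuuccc
mmu-miR-298-3p: gAGGAACUagccuucucucagcuu
The 4 products have 4 different seeds. They lie on the reverse strand at chr2:174267093-174267113, chr2:174267058-174267079, chr2:174267553-174267575 and chr2:174267512-174267535, in the order printed.

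The cluster of Mir296 was at log2 levels of 9.38, 9.39 and 9.27 in Dgcr8 KO, 7.05, 7.08 and 7.03 in Dicer KO, against 7.28, 7.21 and 6.94 in WT. The cluster of Mir298 was at 8.69, 9.17 and 9.08 in Dgcr8 KO, 6.0, 6.13 and 6.20 in Dicer KO, against 6.40, 6.26 and 6.28 in WT. For both, every Dgcr8 KO array lay above every array of the other genotypes. Mir335, within Mest, was at 5.32, 5.29 and 5.26 in Dgcr8 KO, 5.23, 5.19 and 5.23 in Dicer KO, against 5.16, 5.19 and 5.23 in WT, and Mir483, within Igf2, at 7.86, 7.41 and 7.69 in Dgcr8 KO, 7.45, 7.49 and 7.68 in Dicer KO, against 7.97, 7.52 and 7.63 in WT. The genotypes of Mir483 overlapped. For Mir335 every Dgcr8 KO array lay above every Dicer KO and WT array, within a narrow range of 5.16 to 5.32. The positions of the probes of these clusters were not used here, and primary, precursor and mature forms were not measured apart. The cluster levels are therefore not levels of the mature products printed above.

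Regulators of imprint maintenance and DNA methylation were read on the same arrays, among them Tet1 and Tet2, whose enzymes act in the removal of methylation. Tet1 has several clusters, each counted here. Of 33 clusters of 22 such genes, 6 were called higher and 15 lower for Dgcr8 KO, and 4 higher and 14 lower for Dicer KO. Since 7 of the clusters carry the symbol Cbx3, and near-identical copies of a gene cannot be told apart by symbol, the counts were also taken without them, giving 6 higher (23.1%) and 8 lower (30.8%) of 26 for Dgcr8 KO and 4 higher (15.4%) and 11 lower (42.3%) for Dicer KO. Over all transcripts 15.7% were higher and 17.3% lower for Dgcr8 KO, and 17.8% and 19.1% for Dicer KO, so that without Cbx3 the share lower was above the background, less so for Dgcr8 KO. Dnmt3a, a de novo DNA methyltransferase, was at log2 levels of 8.89, 8.88 and 8.89 in Dgcr8 KO, 8.52, 8.54 and 8.49 in Dicer KO, against 10.57, 10.62 and 10.61 in WT. Its log2 ratio was -1.71 for Dgcr8 KO (adjusted p = 1.21e-08) and -2.08 for Dicer KO (adjusted p = 3.68e-09). Dnmt3l, its cofactor in setting germline imprints, had -0.85 and -1.47 in the same order, and Dppa3, which protects methylated DNA in the zygote, had -2.17 and -2.97 on 1 cluster and -1.50 and -2.11 on another. Among the clusters called higher in both mutants, Arid4a had 0.85 for Dgcr8 KO and 0.51 for Dicer KO, and Kdm1b 0.40 and 0.56.

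Zfp57 differed between the mutants. It was at log2 levels of 11.61, 11.71 and 11.70 in Dgcr8 KO, 10.53, 10.56 and 10.53 in Dicer KO, against 11.60, 11.67 and 11.62 in WT, so that Dgcr8 KO overlapped WT and Dicer KO lay below both. The ratio to WT was 0.05 for Dgcr8 KO (adjusted p = 0.536) and -1.09 for Dicer KO (standard error 0.0468, adjusted p = 1.62e-07), and the mutants differed by 1.14 (adjusted p = 5.73e-07, limma). Whether any member moved with these genes was not tested, and methylation was not measured on these arrays.

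Of 35 further imprinted genes and neighbours, some of them in the domains described above, 28 had a cluster, with 4 higher (14.3%) and 5 lower (17.9%) for Dgcr8 KO and 6 higher (21.4%) and 5 lower (17.9%) for Dicer KO. Sfmbt2, a Polycomb-group gene, had log2 ratios of -2.52 for Dgcr8 KO and -0.99 for Dicer KO, while Ddc, the aromatic amino acid decarboxylase beside Grb10, had 2.0 and 1.40 in the same order. Qpct had 0.92 for Dgcr8 KO and 1.21 for Dicer KO, and Tspan32, a tetraspanin gene of the Kcnq1 domain, had 1.13 and 1.90. These shares were close to those of all transcripts, 15.7% higher and 17.3% lower for Dgcr8 KO and 17.8% and 19.1% for Dicer KO.

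Markers of other cells that express imprinted genes were read as well. Over all transcripts 15.7% were called higher and 17.3% lower for Dgcr8 KO, and 17.8% and 19.1% for Dicer KO. Of 11 trophoblast marker clusters, 1 was higher (9.09%) and 4 lower (36.4%) for Dgcr8 KO. For Dicer KO 3 were higher (27.3%) and 2 lower (18.2%). Their mean log2 level was 7.02 to 7.09 in Dgcr8 KO, 7.40 to 7.48 in Dicer KO, against 7.36 to 7.40 in WT. The keratin genes Krt18 and Krt8 led the decrease, with -2.0 and -1.42 for Dgcr8 KO and -0.52 and -0.45 for Dicer KO, Krt7 had -0.92 and 0.13, and the transcription factor gene Tead4 had 1.05 and 0.88. Of 12 primitive endoderm marker clusters, 1 was higher (8.33%) and 2 lower (16.7%) for Dgcr8 KO. For Dicer KO 1 was higher (8.33%) and 3 lower (25%). Their means were 6.22 to 6.37 in Dgcr8 KO, 6.15 to 6.20 in Dicer KO, against 6.45 to 6.55 in WT. Dab2 had -1.13 for Dgcr8 KO and -1.15 for Dicer KO on 1 cluster. Its other cluster, among the dimmest 25% of transcripts, was called in neither, at 0.24 (adjusted p = 0.339, limma) and -0.09 (adjusted p = 0.693, limma). Cubn had -1.26 for Dgcr8 KO and -1.46 for Dicer KO. Gata4 had 0.35 for Dgcr8 KO and -0.17, not called, for Dicer KO (adjusted p = 0.119), and Col4a1 had 0.09, not called, for Dgcr8 KO (adjusted p = 0.144) and 0.16 for Dicer KO.

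Of 13 feeder fibroblast marker clusters, 2 were higher in Dgcr8 KO (15.4%, Twist1 at 0.40 and Loxl1 at 0.32) and none was lower. None was called in Dicer KO. Their means were 5.70 to 5.92 in Dgcr8 KO, 5.74 to 5.79 in Dicer KO, against 5.77 to 5.95 in WT. Of the 12 ES cell markers, 8 were higher (66.7%) and 1 lower (8.33%) for Dgcr8 KO. For Dicer KO 8 were higher (66.7%) and 2 lower (16.7%). Among those higher were Tfcp2l1 with 0.72 for Dgcr8 KO and 1.45 for Dicer KO, and Nanog with 0.77 and 1.10. Dppa5a had 0.30 and 0.58, and Klf4 0.19 and 0.60. Utf1 was lower in both mutants, with -0.45 and -0.51. Sall4 was lower for Dicer KO at -0.26 and not called for Dgcr8 KO at -0.03 (adjusted p = 0.658, limma). The part of these marker differences in the levels of Phlda2, Peg10, Slc38a4, Igf2 or any other member was not tested.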

How the data were processed

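RNA of Dgcr8 KO, Dicer KO and WT ES cells was hybridised to 9 Affymetrix mouse gene 1.0 ST arrays (1 colour, 3 per genotype). The deposited log2 values had been normalized by the authors. The methods name RMA and the submitters' processing notes name GCRMA, with no version given. The values, from 1.63 to 14.99 with array medians of 6.49 to 6.56, were used as deposited, and the number of arrays limits the precision. Groups came from the sample labels, symbols from the platform annotation, and positions and sequences from RefSeq of GRCm38.p6. Of 35557 clusters, 23410 carry a symbol (1621 several), and 326 miRNA-only, 4 mitochondrial and 78 Y-linked ones were left out, which leaves 23002.

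All 9 arrays entered 1 linear model with a mean for each genotype (limma 3.58.1, R 4.3.3, lmFit and eBayes), from which 3 contrasts were tested. Calls needed an adjusted p under 0.05 after Benjamini-Hochberg. The members, gene lists and rules were chosen with earlier results of these data known. Every member was accounted for. Values on every array were given for members called with a log2 ratio of at least 1 in size and, beyond that rule and after their values were seen, for Peg3, Inpp5f, Mkrn3, Dnmt3a and Zfp57. From each other list up to 4 called genes, those of smallest adjusted p, were named. Utf1 and Sall4 were added because they went the other way from the named ES cell markers. Arid4a and Kdm1b were added because they were called higher, unlike the other named regulators. SAM, which the methods name, was rewritten as an alternative, and 22 alternatives were planned and 1 added after the data were seen. Scripts were tested on simulated data.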

Additional observations from a re-analysis of the deposited data

Results flagged for a closer look

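Peg3 and Inpp5f were singled out because their log2 ratios to WT were called in opposite directions in the mutants and the direct contrast was called as well. Peg3 was above Dicer KO in Dgcr8 KO by 0.81 on the log2 scale (adjusted p = 3.46e-06, limma), with all 3 Dgcr8 KO arrays above WT and all 3 Dicer KO arrays below it. Inpp5f differed by -0.47 (adjusted p = 0.000187, limma), with all 3 Dgcr8 KO arrays below WT and all 3 Dicer KO arrays above it. SAM called neither ratio of Inpp5f to WT and called its difference between the mutants. The mutants share the WT arrays, and the direct contrast uses them only for the spread. Groups of 3 arrays were not given an outlier test.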

How the results depend on the processing

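The counts of members called stayed within 1.5 times the reported ones in both directions and in all 3 comparisons under every alternative run except the demand for a change of at least 1.5-fold. That demand left 3 members higher and 7 lower in Dgcr8 KO, 4 higher and 9 lower in Dicer KO, and 4 higher and 2 lower in Dgcr8 KO relative to Dicer KO, where 5.51% and 3.54%, 7.17% and 3.69%, and 2.21% and 2.73% of all transcripts were called higher and lower. Leaving out 1 array at a time gave 5 to 6 members higher and 14 to 17 lower in Dgcr8 KO, 7 to 8 higher and 15 to 18 lower in Dicer KO, and 6 to 8 higher and 7 to 9 lower between the mutants, beside 14.0% to 15.8% and 14.5% to 18.5%, 15.6% to 17.7% and 15.5% to 19%, and 8.19% to 13% and 10.0% to 15.5% of all transcripts. SAM called 4 higher and 12 lower, 6 higher and 13 lower, and 10 higher and 10 lower in the same order, beside 11.3% and 10.2%, 15.6% and 15.5%, and 19.9% and 16.9% of all transcripts. No called value changed sign under the alternatives. Of 64 calls of members, 47 held under all alternatives other than the stricter thresholds, and 17 were lost in at least 1 of them. Among the lost calls, those of Mest and Inpp5f in Dgcr8 KO and of Slc22a18, Blcap, Impact and Inpp5f in Dicer KO were lost under SAM and no other alternative of that kind. In 10 cases a member that was not called in a contrast was called under at least 1 alternative, most often Slc22a2 in Dgcr8 KO and Blcap between the mutants, each under 5. Deviations from the genotype means correlated from -0.2 to 0.344 between same-numbered arrays of different genotypes, and from -0.465 to 0.317 between differently numbered ones. Pairing by replicate number was not assumed in the main fit. A fit with the replicate block called 5 higher and 15 lower in Dgcr8 KO, and 8 higher and 16 lower in Dicer KO. Between the mutants it called 7 higher and 8 lower. Signal over background could not be given from normalized values, so faint members such as Asb4 and Usp29 have levels whose precision rests on 3 arrays.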
